A study of Homo sapiens with 2 samples.

Results

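Kinesins are motor proteins that use ATP to move along microtubules or to take them apart at their ends. This account covers 40 human kinesin genes, chosen by symbol, among 23752 genes and unnamed transcripts measured on microarrays of HepG2 cells, an established human hepatocellular carcinoma line. Probes were assigned to a gene through the RefSeq transcript that the array files give, which matched 55 probes of 39 kinesin genes, and the brightest probe stood for each gene. KIF18B had no matched probe, KIF6, KIF12, KIF25 and KIF26B were not well above background on either array, and the other 35 kinesins were measured.

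The cells were treated for 24 h with hawk tea extract (HTE), a plant extract dissolved in dimethyl sulfoxide (DMSO), or with DMSO alone. The sample labels give an HTE dose of 200 μg per mL, whereas the study's text gives a higher dose for the same experiment. One array was made per condition, in a single colour (Cy3), and both arrays carry the same scan identifier. With 1 array per condition, no test between the conditions was possible, array and treatment cannot be told apart, and precision is limited by how few arrays there are. On the DMSO array 60.6% and on the HTE array 56.6% of the spots that are not controls were well above background, and no spot was saturated. All 10 hepatocyte markers examined were well above background on both arrays, with log2 ratios of HTE over DMSO between -0.36 (FGB) and 0.21 (SERPINA1). Of 10 markers of other cell types, CD3E, CDH5, DCN and LUM were not above background on either array, COL3A1 only on the DMSO array, and PTPRC, CD68, PECAM1, COL1A1 and ACTA2 were above it on both, of which PECAM1 had a log2 ratio of -1.82. The part of these markers in the results was not tested.

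Kinesins fall into families by the sequence of the motor domain, and the families differ in their work. Mitotic kinesins build the spindle, move and align chromosomes, and carry out cytokinesis, and many of them are made mainly in cells that are about to divide. Transport kinesins carry vesicles, organelles and protein complexes throughout the cell cycle, and several are best known from neurons. A further set acts in cilia, at microtubule ends, or in ways that fit neither class. Here 12 members were taken as mitotic, 15 as transport kinesins, and 13 as kinesins of cilia and microtubule ends.

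The promoters of kinesins are shown first, as a description of their letters, and a part of these letters in the changes was not tested. In dividing cells, many genes with peak expression in G2 and mitosis carry a cell cycle homology region (CHR), an element bound by the MuvB complexes, and often CCAAT boxes, which NF-Y binds, upstream of it. The RefSeq promoters (GRCh38.p14) held 41 entries for 32 of the 40 kinesins, each from 250 bases before to 50 bases after a transcription start. Entries for KIF5A, KIF13B, KIF19, KIF21B, KIF26B, KIF27, KIFC2 and KIFC3 were not matched. The letters TTTGAA or TTCGAA were searched for the CHR, CCAAT for the CCAAT box, and TTGGCGC or TTCCCGC for E2F-like sites, on both strands. On the other strand the CHR reads TTCAAA, and a CCAAT box read as ATTGG can share letters with TTGGCGC. The printed stretches run from 160 bases before to 30 bases after the start, 5′ to 3′ along the gene, with CHR and CCAAT letters in capitals. They are KIF15 and KIF4A, mitotic kinesins that fell, KIF2C, a mitotic kinesin that fell but has neither set of letters, KIF24, a kinesin outside the mitotic class that fell, and KIF5B, a transport kinesin with both sets.

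KIF15, chr3:44761634-44761823, + strand: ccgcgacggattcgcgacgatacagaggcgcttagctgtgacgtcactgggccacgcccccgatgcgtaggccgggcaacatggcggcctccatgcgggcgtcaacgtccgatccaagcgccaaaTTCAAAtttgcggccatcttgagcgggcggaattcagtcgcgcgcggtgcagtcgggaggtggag
KIF4A, chrX:70289944-70290133, + strand: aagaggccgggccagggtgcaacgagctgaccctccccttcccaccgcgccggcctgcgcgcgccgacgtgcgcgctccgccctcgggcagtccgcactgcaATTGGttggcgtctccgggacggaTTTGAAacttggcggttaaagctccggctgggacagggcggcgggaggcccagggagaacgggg
KIF2C, chr1:44739677-44739866, + strand: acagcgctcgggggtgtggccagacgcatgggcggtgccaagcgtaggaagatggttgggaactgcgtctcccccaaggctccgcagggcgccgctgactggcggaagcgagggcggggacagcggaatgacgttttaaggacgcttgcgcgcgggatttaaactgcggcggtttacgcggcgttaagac
KIF24, chr9:34329239-34329428, - strand: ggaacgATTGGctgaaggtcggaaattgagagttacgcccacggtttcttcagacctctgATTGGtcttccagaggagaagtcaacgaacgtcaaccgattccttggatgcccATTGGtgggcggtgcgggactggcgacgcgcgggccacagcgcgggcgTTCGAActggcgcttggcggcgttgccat
KIF5B, chr10:32056396-32056585, - strand: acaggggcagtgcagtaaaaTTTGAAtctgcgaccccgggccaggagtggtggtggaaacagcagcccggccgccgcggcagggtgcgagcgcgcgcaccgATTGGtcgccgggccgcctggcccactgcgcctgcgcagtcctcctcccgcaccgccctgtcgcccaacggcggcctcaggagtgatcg

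CHR letters were present in 11 of the 13 promoters of mitotic kinesins (84.6%), or 10 of 12 genes, against 16.4% of all 35116 promoters. They were present in 1 of 16 promoters of transport kinesins, that of KIF5B, and in 1 of 12 promoters of the cilia and microtubule-end class, that of KIF24. CCAAT letters were in 10 of the 13 mitotic promoters (34.6% of all promoters), in 5 of 16 transport promoters and in 4 of 12 of the remaining class. Both sets of letters occurred together in 9 mitotic promoters, against 6.38% of all. E2F-like letters were in 3 of the 13 mitotic promoters, 3 of 16 transport promoters and 2 of 12 of the remaining class (9.23% of all promoters). Of the 12 CHR matches of the mitotic class, 11 lay within 60 bases of the start, in 10 genes, whereas 5.44% of all promoters have a match that near. The other, at -244 in an entry of KIF22, is the same site that lies at -27 in its other entry, so this site is counted in both. Counted from the start, the match begins at -35 in KIF15 and at -34 in KIF4A, at 2 in KIF24, inside the transcript, and at -140 in KIF5B. These matches describe letters and say nothing of binding.

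Among the measured members, the log2 processed signal relative to the 75th percentile of each array was used as the level of a gene, and the difference of HTE minus DMSO is its log2 ratio. The 11 measured mitotic kinesins were all lower on the HTE array, with a median log2 ratio of -1.23, from -1.73 (KIF15) to -0.47 (KIF11), and 8 of them were at least 2-fold lower. Of all 23752 genes and transcripts, 3.03% were at least 2-fold lower and 49.0% were lower by any amount, and their median log2 ratio was 0.00. The 15 transport kinesins, which were all measured, had a median of 0.23, with 6 lower and 9 higher, and none was 2-fold lower with any scaling other than that to spike-in RNA. With the second brightest probe, which turns KIFC2, 7 were lower and 8 higher and the median was 0.14. KIF3C and KIF5A were at least 2-fold higher, 2 of 15 transport kinesins, against 5.25% of all genes, and neither was 2-fold higher relative to spike-in RNA (0.35 and 0.76). The lowest transport kinesin (KIF16B, -0.33) lay above the highest mitotic kinesin (KIF11, -0.47), but by less than the error that the scanner software assigns to either ratio (0.20). The values of the mitotic and transport classes did not overlap, except when the second brightest probe was used, which placed KIFC2 below KIF11. They also overlap if KIF2A (0.03), here in the cilia and microtubule-end class, is counted as mitotic. Within the software error the edges of the mitotic and transport classes were not separate. The difference between the class medians was -1.46 and is the same under each scaling that shifts an array as a whole, quantile normalization giving -1.37. Relative to the spots of E1A spike-in control RNA all ratios shifted down, with a median of all genes of -1.07 and 56.8% of them at least 2-fold lower, and 13 of the 15 transport kinesins were then lower as well. With unscaled signals all genes had a median of -0.16, and 5.09% were at least 2-fold lower and 3.72% at least 2-fold higher.

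**Figure D1:**
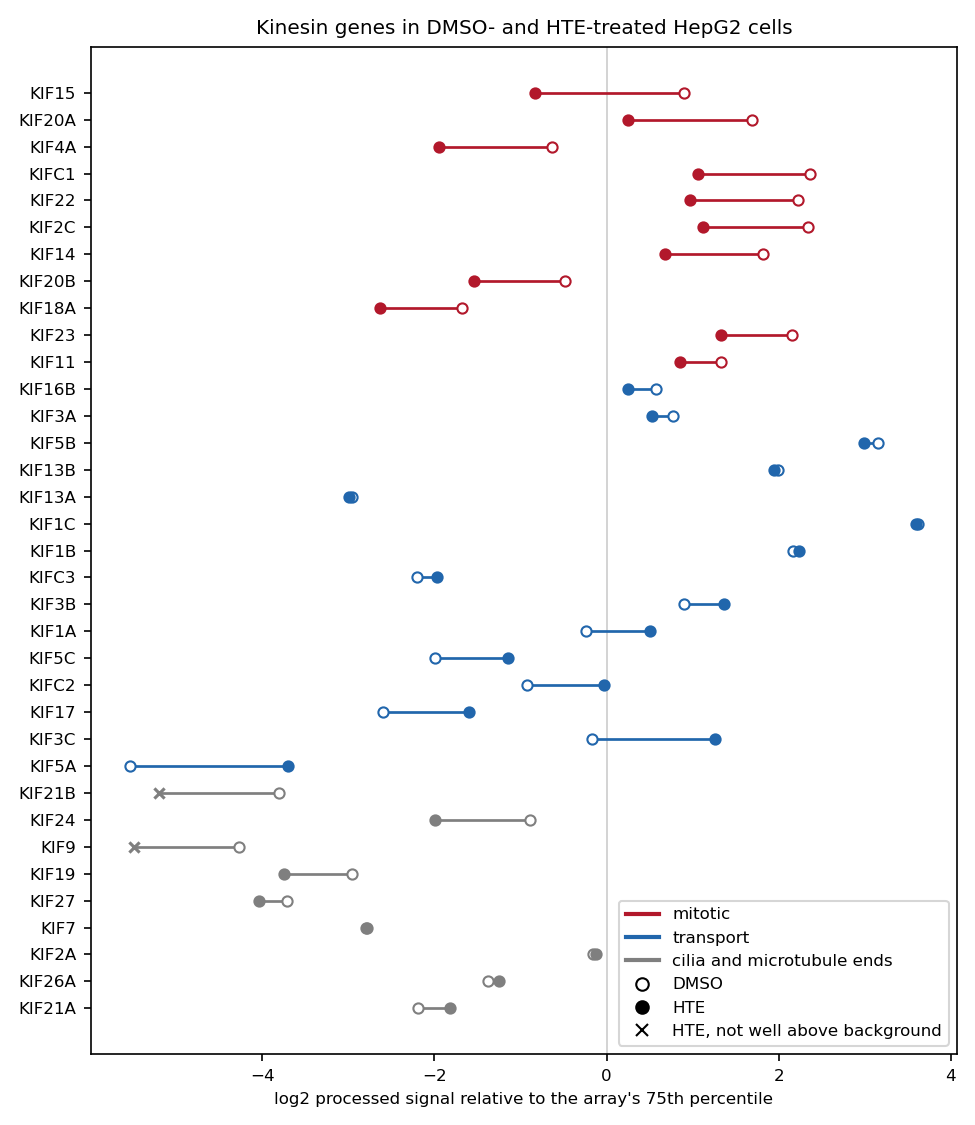
Level of each of the 35 measured kinesins on the DMSO array (open circles) and the HTE array (filled circles) as log2 processed signal relative to the 75th percentile of the array, coloured by class, with 1 array per condition and no error bars. All 11 mitotic kinesins shift to the left, KIF3C and KIF5A shift furthest to the right, and crosses mark KIF9 and KIF21B, which were not well above background on the HTE array.

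**Figure D2:**
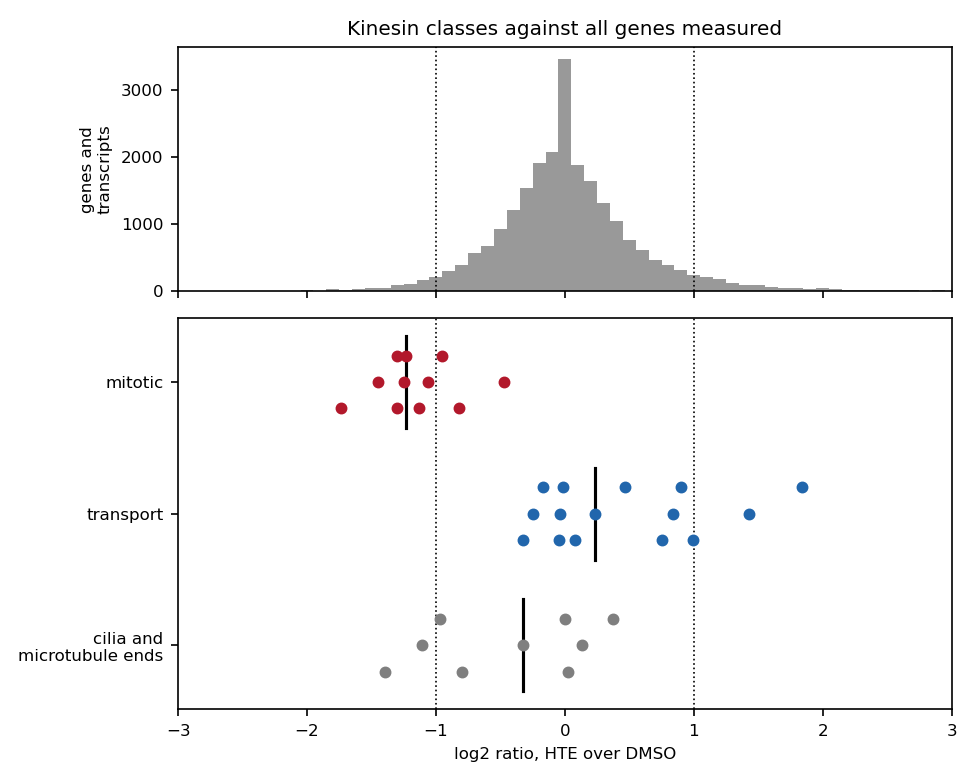
Top, number of genes and transcripts by log2 ratio of HTE over DMSO for all 23752, shown from -3 to 3, with a peak at 0 that includes ratios set to no change. Bottom, each point is a kinesin, the black bars are class medians (-1.23, 0.23 and -0.33, the second of which is -0.85 relative to spike-in RNA) and the dotted lines mark 2-fold, past which lie 8 mitotic kinesins and 2 of the cilia and microtubule-end class (KIF21B and KIF24) on the low side and 2 transport kinesins on the high side.

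Among the mitotic kinesins, those that build the bipolar spindle differed most from each other. KIF15, which crosslinks spindle microtubules and backs up KIF11, had a level of 0.90 on the DMSO array and -0.83 on the HTE array, a 3.33-fold fall. KIF11, the plus-end motor that pushes spindle poles apart, went from 1.33 to 0.85 (log2 ratio of -0.47), the smallest change of the class. KIFC1, a minus-end motor that focuses spindle poles, went from 2.36 to 1.06 (-1.30). The pair KIF15 and KIF11 thus lay at the opposite ends of the class although they share the task of keeping the spindle bipolar.

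Kinesins that act on chromosomes and kinetochores were all lower. KIF2C, which depolymerises microtubules at kinetochores and centromeres, had levels of 2.35 on the DMSO array and 1.12 on the HTE array, a log2 ratio of -1.23. KIF22, a chromokinesin that pushes chromosome arms away from the poles, went from 2.22 to 0.97 (-1.25). KIF4A, a chromokinesin that also limits the length of the central spindle, went from -0.64 to -1.94 (-1.30). KIF4B, a near-identical gene copy of KIF4A, may share its signal, which was not tested. KIF18A, which dampens chromosome movements at the metaphase plate, went from -1.68 to -2.63 and stayed just short of 2-fold (-0.95). KIF18A crossed 2-fold with quantile normalization (-1.02), with scaling to the median (-1.03) and without scaling (-1.12).

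The kinesins of cytokinesis were also lower. KIF20A, which carries the chromosomal passenger complex to the central spindle, went from 1.70 to 0.24, a log2 ratio of -1.45, the largest after that of KIF15. Its relative in the same family, KIF20B, went from -0.48 to -1.54 (-1.06), close to 2-fold. KIF14, which works at the midbody, went from 1.81 to 0.68 (-1.13). KIF23, the motor subunit of centralspindlin, went from 2.16 to 1.33 (-0.82), under 2-fold. The members nearest to the 2-fold threshold in the mitotic class were KIF20B on the inside and KIF18A on the outside.

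The error that could be measured is that of the arrays. Replicate spots of a probe were available for 2 members. The 9 usable spots of KIF20A gave log2 ratios between -1.51 and -1.39, with an SD of 0.03, and the 10 spots of KIF21A gave ratios between 0.24 and 0.49, with an SD of 0.07. Among 688 probes with at least 5 usable spots the median SD was 0.05. The scanner software assigns a larger error to each spot, which for the ratio of a mitotic kinesin comes to 0.20 to 0.21 on the log2 scale. All 11 mitotic kinesins were lower by more than this error, and 6 of them (KIF15, KIF20A, KIF4A, KIFC1, KIF22 and KIF2C) were past 2-fold by more than it. For the transport kinesins the error was 0.20 to 0.37, highest for KIF5A. With scaling to the 75th percentile, 2 of them were lower and 8 higher by more than their error, and 5 were within it. KIFC2, whose probes disagree, is among the 8. Both KIF3C and KIF5A were past 2-fold by more than their error, but KIF5A was not with normexp background correction (1.20). How many of all genes differ by more than their error was not counted, so these counts describe precision only. None of these errors includes the variation between cultures.

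Several members had more than 1 probe well above background on both arrays, 10 genes in all. In 4 mitotic genes the probes had the same direction, at -1.06 and -1.07 for KIF20B, -1.25 and -1.33 for KIF22, -0.82 and -0.91 for KIF23, and -1.30 and -0.86 for KIF4A, so that the dimmer probe of KIF4A was short of 2-fold. In 3 of 6 transport genes the probes had opposite signs. KIFC2 disagreed most, with 0.90 at the brighter probe and -0.60 at the dimmer one, and no direction is given for it. The probes of KIF1B lay between -0.13 and 0.12, and those of KIF13B at -0.04 and 0.14. The remaining transport genes had probes of 1 sign each, at 1.43 and 2.40 for KIF3C, -0.17 and -0.46 for KIF5B, and -0.33 and -0.40 for KIF16B.

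**Figure D3:**
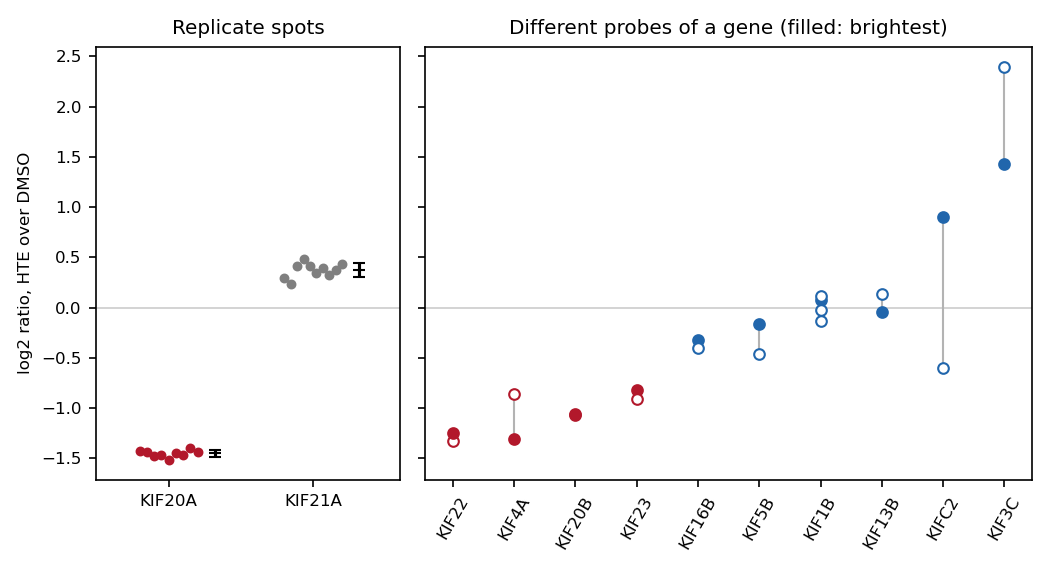
Left, log2 ratio of HTE over DMSO for the replicate spots of KIF20A (9 spots) and KIF21A (10 spots), with mean and SD beside them. Right, ratios of different probes of the same gene in the 10 genes with several probes above background on both arrays, filled for the brightest probe, where KIFC2 spans from -0.60 to 0.90 and the 4 mitotic genes stay below 0.

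Transport kinesins did not move as a group. In the kinesin-1 family, the heavy chains of conventional kinesin, KIF5B, which is made in most tissues, had levels of 3.15 and 2.99 on the DMSO and HTE arrays (log2 ratio of -0.17). Of the neuronal forms, KIF5A went from -5.54 to -3.70 (1.84), but from a dim spot with a processed signal of 86.6 on the DMSO array. Its ratio was above that of KIF3C (1.43) here, and below it with normexp background correction (1.20 against 1.37), the mean over probes (1.84 against 1.91) and the second brightest probe (1.84 against 2.40). The other neuronal form, KIF5C, went from -1.99 to -1.15 (0.84), under 2-fold.

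In the kinesin-2 family, whose heterotrimeric form moves cargo along the ciliary axoneme, the motor subunits differed. KIF3A went from 0.77 to 0.52 (-0.25) and KIF3B from 0.90 to 1.37 (0.47). KIF3C, an alternative partner of KIF3A that is best known from neurons, went from -0.17 to 1.26, a 2.69-fold rise. KIF17, which forms a homodimer of its own, went from -2.60 to -1.60 (0.996), just under 2-fold. It passed 2-fold when the arrays were scaled to the spots above background on both (1.01), and relative to spike-in RNA it was not higher (-0.09).

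Of the 6 vesicle carriers in the kinesin-3 family, KIF1C, KIF1B, KIF13A and KIF13B differed by less than the software error, and KIF16B and KIF1A by more, in opposite directions. KIF1C, a carrier of vesicles and of some mRNAs, had levels of 3.61 and 3.597 (log2 ratio of -0.02). KIF1B, which carries mitochondria and synaptic vesicle precursors, went from 2.16 to 2.24 (0.08), KIF13A, a motor of recycling endosomes, from -2.96 to -2.997 (-0.04), and KIF13B from 1.99 to 1.95 (-0.04). KIF16B, which moves early endosomes, went from 0.57 to 0.25 (-0.33). KIF1A, a motor of synaptic vesicle precursors, went from -0.24 to 0.51 (0.75). Of the minus-end motors, KIFC3 went from -2.20 to -1.97 (0.23) and KIFC2 from -0.93 to -0.03 at its brighter probe.

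The kinesins of cilia and microtubule ends were mixed, with a median log2 ratio of -0.33 over the 9 that were measured, 5 lower and 4 higher. KIF24, which holds back cilium formation at the mother centriole, went from -0.89 to -1.997 (-1.11), and to -0.97 with normexp background correction. KIF21B, a regulator of microtubule growth, was 2.63-fold lower by its own signal, a point value and not a minimum. Its spot had a processed signal of 286.6 on the DMSO array and was not well above background on the HTE array. The dimmer probe of KIF21B was set to no change. With normexp background correction the ratio of KIF21B was -0.93, and no member of this class was then past 2-fold. KIF9, a kinesin of motile cilia, was also not well above background on the HTE array. Its 1.96-fold fall was taken from the dimmest probe above background there, because its own signal was dimmer. With normexp background correction the ratio of KIF9 was -0.50. Both genes were kept only because of the array on which they were higher, and with them left out the median of this class was 0.004. KIF19, which limits the length of cilia, went from -2.95 to -3.75 (-0.80), and KIF27 from -3.71 to -4.03 (-0.33). KIF7, a regulator of Hedgehog signalling at the cilium tip, had a level of -2.79 on both arrays, and KIF2A, which depolymerises microtubule ends, levels of -0.15 and -0.13. KIF26A, an atypical kinesin, had a ratio of 0.13 and KIF21A, a relative of KIF21B, a ratio of 0.37.

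Families with members of more than one class allow a comparison among genes of similar motor domains. In 4 of 5 such families the mitotic member was lower than each of the others. In the kinesin-3 family KIF14 had a ratio of -1.13, against -0.33 to 0.75 for the 6 transport members. In the kinesin-14 family KIFC1 had -1.30, against 0.23 for KIFC3 and, at its 2 probes, 0.90 and -0.60 for KIFC2. In the kinesin-13 family KIF2C (-1.23) and KIF24 (-1.11) differed by 0.12, whereas KIF2A had 0.03. This difference is less than the software error of either ratio, though more than the median SD of replicate spots (0.05). In the kinesin-8 family KIF18A (-0.95) and KIF19 (-0.80) also differed by less than the software error. The kinesin-4 family was the exception, since KIF4A (-1.30) was not lower than KIF21B (-1.39), although it was lower than KIF27, KIF7 and KIF21A. The value of KIF21B rests on a dim spot, and the difference is within the software error. The order turned with normexp background correction (-1.20 against -0.93), the mean over probes (-1.08 against -0.70) and the second brightest probe (-0.86 against 0.00). This exception thus depends on the processing.

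**Figure D4:**
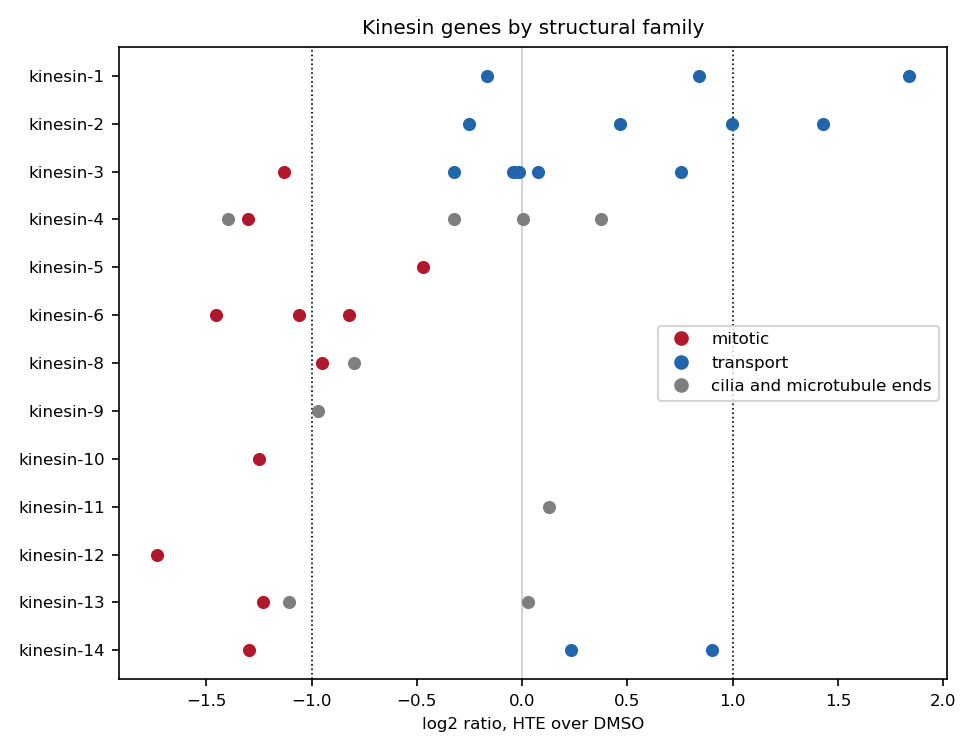
Log2 ratio of HTE over DMSO of each measured kinesin (points) by structural family, coloured by class, with dotted lines at 2-fold. The mitotic members of kinesin-3 and kinesin-14 stand apart from the transport members of the same family, while KIF24 and KIF19 lie beside the mitotic members of theirs.

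Within the mitotic class the CHR letters were present on both sides of the 2-fold threshold. They were in the promoters of 6 of the 8 mitotic kinesins that were at least 2-fold lower, and absent from those of KIF20A and KIF2C, and they were in all 3 promoters of the mitotic kinesins lower by less than that (KIF11, KIF18A and KIF23). Outside the mitotic class 17 measured members had a promoter entry, and KIF24 (-1.11) and KIF5B (-0.17) were the ones with the letters, which lie near the start in the first and further upstream in the second. A link between the letters, or their position, and the ratios was not tested.

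Genes whose products work with kinesins were described in the same way. Of 12 genes for proteins that act with kinesins on the spindle or midbody, all 12 were lower on the HTE array, against 49.0% of all genes. Their median log2 ratio was -0.93, and 5 were at least 2-fold lower, against 3.03% of all genes. The 12 include KIFBP, which changed little. TPX2, which recruits KIF11 and KIF15 to spindle microtubules, went from 2.60 to 1.12 (-1.48), ANLN, the scaffold of the contractile ring, from -0.49 to -1.62 (-1.13), and CIT, a kinase of the midbody that binds KIF14, from 1.34 to 0.24 (-1.10). NUSAP1 (-1.08) and TACC3 (-1.02) were the others past 2-fold. RACGAP1, which forms centralspindlin with KIF23, had a ratio of -0.91, close to that of KIF23. PRC1, the bundling protein that KIF4A and KIF14 bind, had -0.59, CENPE, itself a kinesin of the kinetochore, had -0.82, and KIFBP, an inhibitor of several kinesin motor domains, had -0.14.

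The partners of transport kinesins included none that was 2-fold lower, except relative to spike-in RNA. Without scaling 1 gene of ciliary transport also was, against 5.09% of all genes. Of 16 light chains and cargo adaptors, 13 were higher and 3 lower (1 of them KIFBP, which is also in the list of mitotic partners), where 49.0% of all genes were lower. Their median was 0.30, which turned to -0.78 relative to spike-in RNA. The light chains KLC1 (0.38) and KLC2 (0.21) and the kinesin-2 subunit KIFAP3 (0.52) stayed under 2-fold, while KLC3 went from -4.54 to -3.40 (1.14) and MAPK8IP2, an adaptor of the JIP family, from -2.02 to -0.67 (1.35). These were 2 of 16 genes at least 2-fold higher, against 5.25% of all genes. The 2 calls became 1 with normexp background correction (3.47% of all genes) or without scaling (3.72%), and 0 relative to spike-in RNA. RHOT2, a mitochondrial adaptor, was the lowest of this list (-0.43). The opposite motor, cytoplasmic dynein with dynactin, had a median of 0.17 over 19 measured genes. Values ran from -0.34 for DYNLL2 to a 2.23-fold rise for DYNLRB2, taken from its own dim signal, which was not well above background on the DMSO array. No gene of this list was 2-fold higher with normexp background correction, without scaling, relative to spike-in RNA or when both arrays had to be above background. The genes of ciliary transport had a median of 0.06 over 18 measured genes, from -0.83 (TTC21B) to 0.53 (IFT20), and none was past 2-fold, against 1 lower without scaling. Relative to spike-in RNA 5 of 16 light chains and adaptors, 7 of 19 dynein and dynactin genes and 10 of 18 genes of ciliary transport were at least 2-fold lower. The share of all genes was then 56.8%, so these counts show no fall beyond that of all genes. Relative to spike-in RNA the medians of dynein and of ciliary transport were also below 0, at -0.91 and -1.02, and without scaling that of ciliary transport was -0.11. In cultures profiled as a whole, fewer cells in mitosis and less RNA of a gene per cell cannot be told apart.

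**Figure D5:**
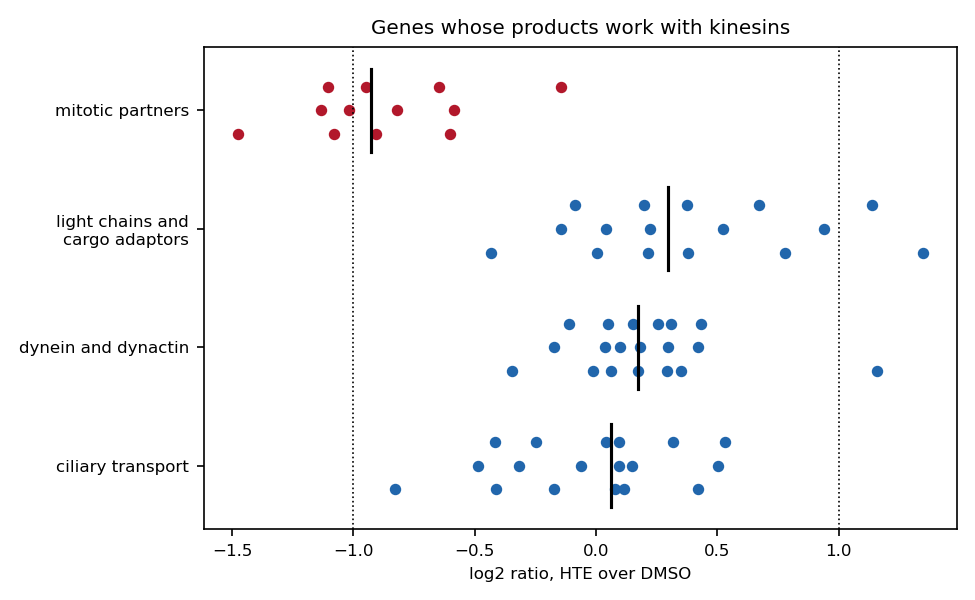
Log2 ratio of HTE over DMSO for genes whose products work with mitotic or transport kinesins (points), with black bars at the list medians (-0.93, 0.30, 0.17 and 0.06, of which the last 3 are below 0 relative to spike-in RNA) and dotted lines at 2-fold. All 12 mitotic partners lie below 0, and of the other lists no gene lies past 2-fold on the low side with this scaling.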

How the data were processed

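The authors deposited Agilent Feature Extraction output (11.5.1.1 per the file headers, 10.7 per the submitters' processing notes) for 1 array of DMSO-treated and 1 of HTE-treated HepG2 cells. The unit used is the intensity that the authors deposited for every spot after the software had subtracted background and removed spatial trends, not scaled between arrays.

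Control spots and spots flagged as outliers were left out, log2 was taken, and the 75th percentile of each array was subtracted. Repeat spots of the same probe were averaged, and a probe needed a share of 0.5 or more of these spots above background on either array to be kept. If it failed this on 1 array it entered as a bound, taken from its own signal or, where higher, from the dimmest probe above background there, and bounds under 1-fold count as no change. Genes were named through RefSeq accessions in the GRCh38.p14 gene table. The array headers name another build, so coordinates are given only for RefSeq promoters. A gene was called at 2-fold, the cutoff of the study's methods, and no test was run with 1 array per condition.

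The members, classes and lists were chosen with earlier results of these data known, and all 40 members may be named. Of the other lists, the genes past 2-fold and the largest rise and fall were to be named, and further genes were chosen for their role after their values had been seen. The code was tested on simulated data. Alternatives changed the background correction, the scaling, the filter on dim probes, the probe standing for a gene, the cutoff and the classes. The normexp correction (offset 50) used the median signal and local background. Python 3.11.15 (pandas 2.3.3, numpy 2.4.6, matplotlib 3.10.9) did the calculations and limma 3.58.1 in R 4.3.3 the normexp correction. Other experiments of the study were not analysed here.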

Additional observations from a re-analysis of the deposited data

How the results depend on the processing

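The mitotic kinesins had a negative median and all 11 were lower under every alternative in the processing. No kinesin past 2-fold changed sign under any alternative, although the value of KIF21B was 0.00 with the second brightest probe. With spike-in scaling the median was -2.31 for mitotic and -0.85 for transport kinesins. Then 7 of 15 transport kinesins were at least 2-fold lower, against 56.8% of all genes, and 0 kinesins were 2-fold higher. Without scaling the medians were -1.40 and 0.0621, and with scaling to the median -1.31 and 0.15. Quantile normalization gave 0.17 for transport kinesins and a difference of -1.37. The mean over all probes gave -1.13 and 0.15, a difference of -1.28, and the second brightest probe -1.13 and 0.14, a difference of -1.27. Counting KIF2A, KIF24 and KIF25 as mitotic gave -1.13, and the class then held a gene that was not lower, KIF2A (0.03). Taking all members outside the mitotic class together gave a median of 0.0155 and a difference of -1.25. Of these 24 measured genes 2 were at least 2-fold lower, against 3.03% of all genes. Without a filter on dim probes 4 kinesins were 2-fold higher, against 5.59% of all genes. The added ones, KIF26B (1.43) and KIF6 (1.18), were not well above background on either array, and their software errors (1.69 and 1.78) exceed these ratios. With the filter, 6 kinesins were at least 1.5-fold higher. At 3-fold 1 mitotic kinesin was lower and 1 kinesin higher. The share of all genes past 1.5-fold or 3-fold was not counted, so nothing about kinesins is read from these counts. Normexp background correction moved 16 of the 35 members by at least the typical SD of replicate spots. Apart from what follows from how an alternative is built, the cause was not tested. No paired analysis was possible because each condition has a single array. Signal over background limits KIF5A, KIF9 and KIF21B most.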
